A study of Caenorhabditis elegans with 2 samples.

Results

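The DRM complex of Caenorhabditis elegans is encoded by 8 genes, lin-9, lin-35, lin-37, lin-52, lin-53, lin-54, efl-1 and dpl-1. These 8 were taken as a fixed list from 19973 nuclear protein-coding genes of the annotation. They are described here by the regions listed at them after immunoprecipitation of the tagged SUMO E3 ligase GEI-17. Chromatin was immunoprecipitated with an antibody to GFP from whole young adult worms of strain OP572 and sequenced (ChIP-seq). The antibody is GFP in the samples' descriptions, whereas the antibody field of the labels reads gei-17. The descriptions are followed here. The worms carry the allele unc-119(tm4063) and the integrated transgene wgIs572, which expresses GEI-17 fused to TY1, EGFP and 3xFLAG tags beside a rescuing unc-119(+) copy. They were 64 h old, of pooled sex, and had been synchronised by starving larvae of the L1 stage after bleaching. All belong to 1 group, sampled as biological replicates 4 and 5 (n = 2). Tagged GEI-17 comes from a transgene, all tissues were pooled, and worms without the tag were not analysed here, so binding of the tagged protein and signal unrelated to it cannot be told apart at any gene below.

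Regions came in 4 lists with ce11 positions. Each region has a summit, its highest point, and a signal, the height given by the authors' peak calling on a scale that is not stated. There were 30000 candidate summits for each replicate alone and 30000 for the pool of both, background included. A filter on the irreproducible discovery rate (IDR), which scores how alike regions rank in replicates, left 1030 pooled summits. They were the 1030 highest of the pooled list, the lowest at a signal of 110.45 and the next candidate at 110.41. Having passed IDR thus equals a place among these 1030, and does not show that both replicates ranked a region alike. Of the 1010 nuclear summits among them, 1003 overlapped a summit in both replicates, 6 in replicate 4 only and 1 in replicate 5 only. For lin-52 the ranks were 442 in replicate 4 and 2781 in replicate 5. Signal was compared within a list only, and ranks (1 for the highest signal) were used across lists of the same length. The replicates differed in that replicate 5 listed 23 mitochondrial summits, all among its 100 highest, and replicate 4 listed none. The pooled list held 20, so ranks near the top of these lists are moved by about that many places. The depth behind each region is unknown.

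LIN-35 is the only pocket protein of the worm, the relative of the retinoblastoma protein, and EFL-1 with DPL-1 forms the E2F and DP pair that binds DNA. LIN-9, LIN-37, LIN-52, LIN-53 and LIN-54 form the MuvB core, in which LIN-54 binds DNA and LIN-53 is a histone-binding protein also found in other chromatin complexes. Together they repress cell cycle genes and keep germline genes off in the soma, and most were found as class B synMuv genes, which hold back vulval fate. GEI-17 belongs to the PIAS family of SUMO ligases, many of which act on chromatin proteins.

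The 101 bases centred on the highest pooled summit are shown for lin-9, lin-54 and lin-52, which passed IDR, and for efl-1 and dpl-1, which did not, so that strong and weak regions can be read side by side. Each runs 5′ to 3′ on the strand of its gene and was read from the RefSeq copy of WBcel235, the same build. Capitals mark TTTGAA, TTTCCCGC or CGCTCCAC on either strand. The spans are III:8904245-8904345 for lin-9, IV:13240627-13240727 for lin-54, III:9824649-9824749 for lin-52, V:16965839-16965939 for efl-1 and II:9169540-9169640 for dpl-1.
lin-9: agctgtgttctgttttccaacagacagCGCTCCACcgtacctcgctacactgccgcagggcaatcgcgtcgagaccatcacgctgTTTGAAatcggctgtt
lin-54: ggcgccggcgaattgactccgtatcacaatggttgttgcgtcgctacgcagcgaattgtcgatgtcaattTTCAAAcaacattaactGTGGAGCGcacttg
lin-52: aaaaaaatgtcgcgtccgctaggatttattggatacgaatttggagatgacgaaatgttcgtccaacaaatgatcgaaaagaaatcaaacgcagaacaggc
efl-1: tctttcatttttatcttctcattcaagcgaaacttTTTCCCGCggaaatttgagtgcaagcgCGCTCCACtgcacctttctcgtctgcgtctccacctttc
dpl-1: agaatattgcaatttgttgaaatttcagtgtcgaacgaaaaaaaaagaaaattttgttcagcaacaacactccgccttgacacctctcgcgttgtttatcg

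Regions that passed IDR lay in the windows of 4 of the 8 DRM genes, all of them genes of the MuvB core: lin-54, lin-9, lin-53 and lin-52. Only the region of lin-9 had no second protein-coding gene in reach. Those at lin-53 and lin-54 also lay upstream of a second gene, so position alone does not assign them to these genes. The summit at lin-52 lay in its coding exon, with the body of ZK632.9 within 200 bp. A gene was counted when a summit lay between 1000 bp upstream of its start and its end. The same held for 813 of the 19973 protein-coding genes (4.07%, 95% exact interval 3.80–4.35). The regions at lin-54, lin-9 and lin-53 held pooled ranks 130, 131 and 134 of 30000, and that at lin-52 held rank 858. The pocket protein gene lin-35 and the E2F gene efl-1 had upstream candidates below the IDR limit, dpl-1 had 1 near the bottom of the list, and lin-37 had none. Since the genes were listed with earlier results of these data known, the count is given beside its background and was not tested.

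**Figure D1:**
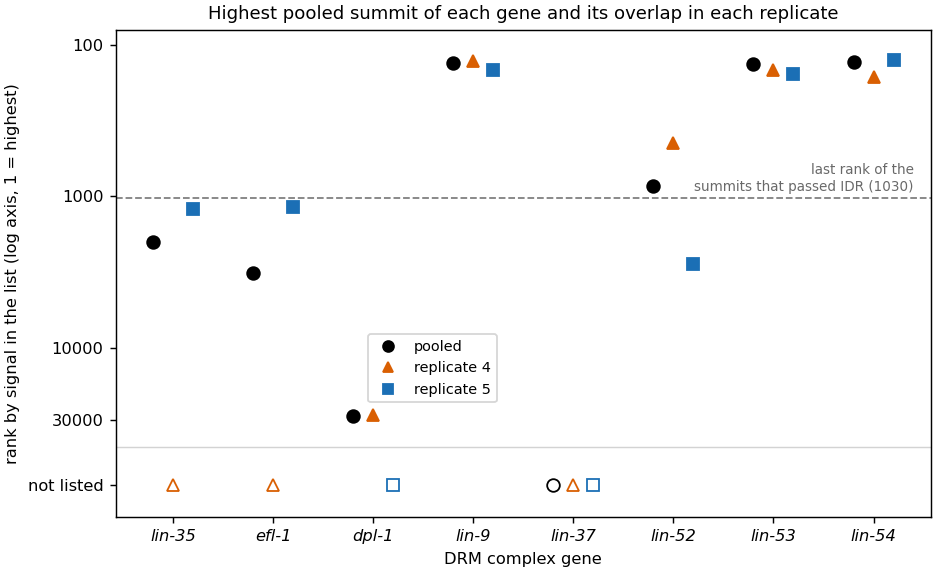
Rank by signal (log axis, 1 at the top) of the highest pooled summit of each DRM gene (black circles) and of the overlapping summit in replicate 4 (orange triangles) and replicate 5 (blue squares); open symbols stand for no overlapping summit in that list, and the dashed line is rank 1030. lin-9, lin-53 and lin-54 lie between ranks 126 and 163 in all 3 lists, lin-52 is split by the replicates, and lin-35 and efl-1 are listed in replicate 5 but not in replicate 4.

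LIN-9 is a conserved core subunit of MuvB. Its region at III:8904153-8904423 had a pooled signal of 307, with the summit 164 bp upstream of the annotated start. The overlapping summit had a signal of 140 and rank 127 in replicate 4, and a signal of 176 and rank 147 in replicate 5. The summits of the replicates lay 137 and 163 bp upstream. Both replicates therefore placed it within 27 bp of the pooled summit. The interval was 271 bp wide, where the commonest width in the pooled list, background included, was 444 bp. The quartiles of nuclear intervals that passed IDR were 257 and 444 bp. The regions of lin-53, lin-54 and lin-52 were narrower than that of lin-9, at 256, 243 and 176 bp. The nearest upstream gene, unc-32, which encodes a subunit of the vacuolar proton pump, starts 1483 bp away on the other strand, so it lay outside the promoter window of unc-32, taken as 1000 bp before a start to 200 bp after it. Of the 4 regions that passed IDR, this was the only one with no second protein-coding gene in reach, whether by promoter window or by a gene body within 200 bp. The other 2 pooled candidates of lin-9 lay in introns at ranks 10452 and 28093.

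LIN-53, a homologue of the histone-binding proteins RbAp46 and RbAp48, belongs to DRM and to other chromatin complexes. The region at I:9619870-9620125 had a pooled signal of 301, with the summit 231 bp upstream of lin-53. The overlapping summit had a signal of 130 and rank 146 in replicate 4, and a signal of 171 and rank 156 in replicate 5. The replicate summits lay 220 and 214 bp upstream. The gene on the other side, nra-2, which encodes a nicalin homologue, is transcribed the other way, and the same summit lay 236 bp upstream of its start. The 2 genes are 466 bp apart, so the summit was almost midway between them and its position does not say to which it belongs. Within lin-53 there were 2 pooled candidates in coding exons, at ranks 11262 and 20354, neither overlapped by a summit of replicate 5. Both also lay upstream of rba-1, the paralogue of lin-53 that follows it on the same strand, at 393 and 592 bp from its start.

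LIN-54 is the subunit that contacts DNA, through a cysteine-rich domain. The region at IV:13240562-13240804 had a pooled signal of 309, with the summit 367 bp upstream of lin-54. The overlapping summit had a signal of 121 and rank 163 in replicate 4, and a signal of 189 and rank 126 in replicate 5. The replicate summits lay 339 and 357 bp upstream. The divergent neighbour rpl-12, a gene for a large-subunit ribosomal protein, is 392 bp away. The summit was 26 bp upstream of rpl-12, much nearer to it than to lin-54. The 3 annotated starts of lin-54 differ by a few bases and put the summit at 367, 368 and 374 bp upstream. A second pooled candidate, 362 bp inside lin-54 at rank 25293, overlapped a summit of replicate 4 at rank 5367 and none of replicate 5.

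LIN-52 is a small subunit that, in human cells, joins MuvB to the pocket protein. Its region at III:9824614-9824789 had a pooled signal of 120 and was the only one of the 4 to lie inside the gene, with the summit 51 bp downstream of the outermost start, in a coding exon. A second annotated transcript starts further in, and the summit was 129 bp upstream of that start. The overlapping summit had a signal of 79.3 and rank 442 in replicate 4, and a signal of 45.95 and rank 2781 in replicate 5. The rank was thus 6.29 times as deep in replicate 5. Over the 1003 nuclear summits that passed IDR and overlapped a summit in both replicates, the median of that ratio was 1.08, and 30 of them (2.99%) had a ratio as high. The lin-52 region would not have been among the 1030 highest of replicate 5 alone.

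A second, lower region lay upstream of lin-52. Its summit was 806 bp upstream of the start, at a pooled signal of 98.1 and rank 1348, just outside the IDR list. In replicate 4 the overlapping summit stood at rank 474, close to that of the first region, and in replicate 5 at rank 13185. Both regions were thus higher in rank in replicate 4. The second region belongs by position to ZK632.9, the gene just upstream on the same strand, since its summit lay 124 bp upstream of that gene's start. lin-52 follows ZK632.9 after 126 bp. Replicate 5 listed a further summit between these regions, 233 bp upstream of lin-52, at rank 9268.

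LIN-37 is the MuvB subunit whose gene window held no summit in any of the lists. The nearest pooled candidate upstream was 39843 bp from the start, at a signal of 27.5 and rank 20973. The nearest downstream was 46332 bp from the start, at rank 7245. In replicate 4 the nearest candidates were 40696 bp upstream and 41747 bp downstream, and in replicate 5 they were 35809 and 42004 bp away. lin-37 lies 60 bp behind ZK418.5 on the same strand, and the gap in the lists reaches far beyond both genes. The absence is thus not particular to lin-37, and its cause was not tested. Each candidate list ended at 30000 summits. The last had a signal of 20.3 for the pool, 13.3 for replicate 4 and 12.6 for replicate 5, and lower signal at lin-37 would not have been listed.

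**Figure D2:**
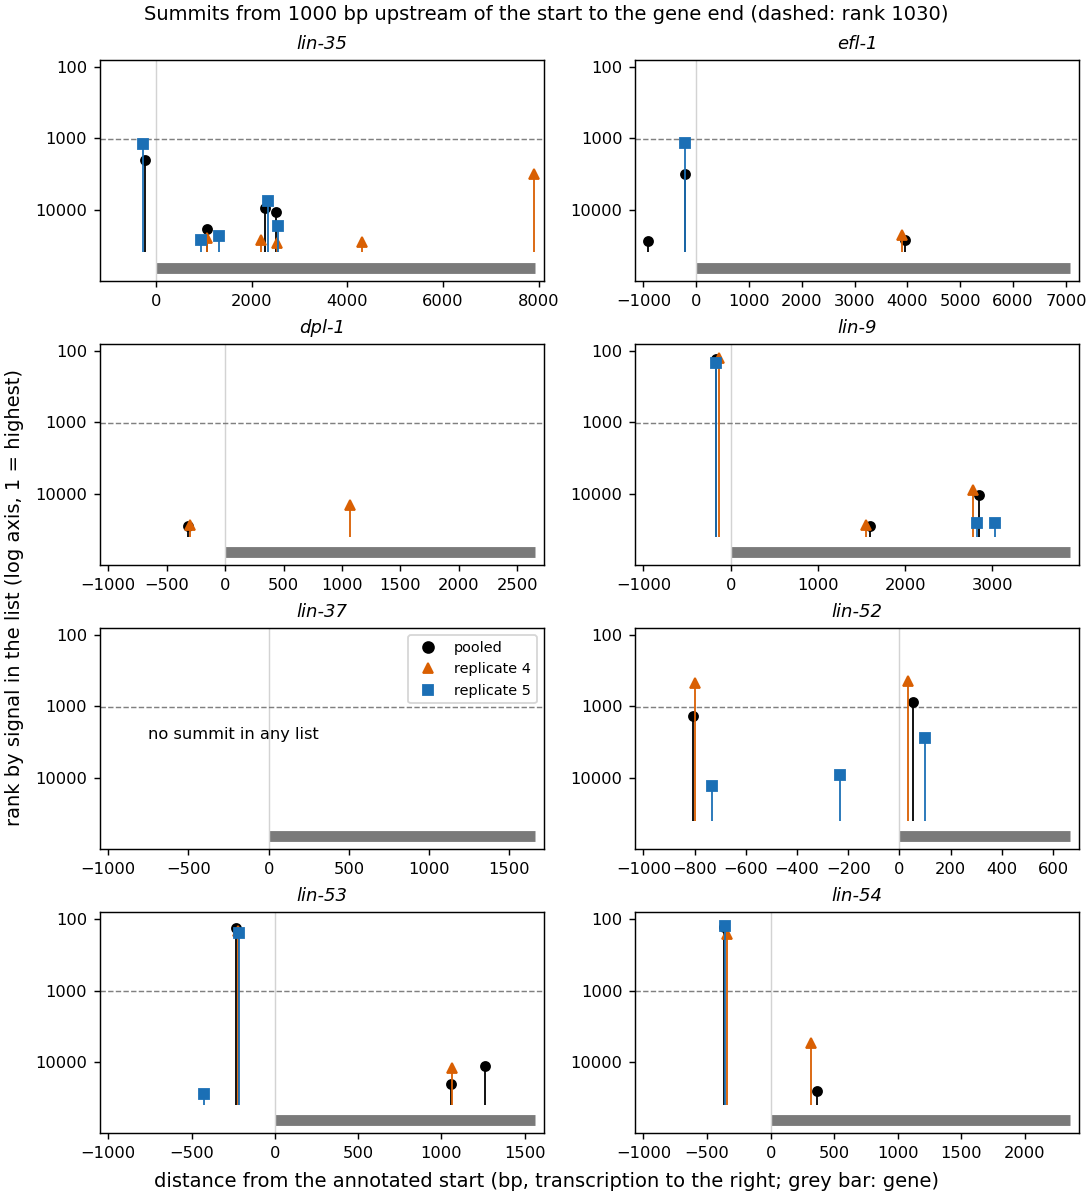
Every summit from 1000 bp upstream of the start to the gene end of each DRM gene, at its distance from the start (x axis, bp) and its rank by signal (y axis, log, 1 at the top) in the pooled list (black), replicate 4 (orange) and replicate 5 (blue). The highest summits lie just upstream of the start at lin-9, lin-53 and lin-54, on both sides of the start of lin-52, and lower but upstream at lin-35 and efl-1.

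lin-35 encodes the pocket protein itself. Its highest pooled summit lay 228 bp upstream of the start, in the region I:5807259-5807702, with a signal of 82.0 and rank 1986, below the IDR limit. Replicate 5 listed an overlapping summit 282 bp upstream, at a signal of 64.4 and rank 1203. Its −log10 q value was at the ceiling of the replicate 5 list, 3.63, which 2110 summits shared, so it adds nothing to the rank. Replicate 4 listed no overlapping summit, and its nearest one was 1298 bp away at rank 25054. The divergent neighbour vps-51, which encodes a subunit of a vesicle-tethering complex, is 417 bp from lin-35, and the summit lay 190 bp upstream of it. The other 3 pooled candidates of lin-35 lay in introns, at ranks 9508, 10678 and 18895. That at rank 9508 was 9 bp downstream of the start of C32F10.4, and that at rank 10678 was 221 bp upstream of it. In replicate 4 the highest summit in the lin-35 window, at a signal of 35.8 and rank 3181, was 7911 bp from the start in the 3′ UTR, near hmg-3, and the pooled list had no summit in that end of the window.

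efl-1 encodes the E2F subunit. Its highest pooled summit lay 214 bp upstream of the start, in the region V:16965667-16966110, with a signal of 66.8 and rank 3193. Replicate 5 listed an overlapping summit 211 bp upstream at a signal of 65.1 and rank 1177, again with the −log10 q value at the ceiling. Replicate 4 listed none there, and its nearest summit was 2047 bp away. The gene on the other side, fbxa-90, which encodes an F-box protein, starts 1138 bp from efl-1, and the summit was 925 bp upstream of it. The remaining pooled candidates of efl-1 stood at ranks 26635 and 27903.

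lin-35 and efl-1 thus share a pattern, a pooled summit upstream of the start that overlapped a summit in replicate 5 and none in replicate 4. The summit in replicate 5 lay 282 bp upstream at lin-35 (rank 1203) and 211 bp upstream at efl-1 (rank 1177). The same was counted over candidates of like pooled rank, in bands chosen after these values were seen. Of the 1030 pooled summits at ranks 1031 to 2060, where lin-35 lay, 9 (0.874%) overlapped a summit in replicate 5 but none in replicate 4, and 17 (1.65%) the other way round. At ranks 2061 to 4000, where efl-1 lay, it was 79 of 1940 (4.07%) and 59 (3.04%). Whether depth or another property of replicate 4 had a part in this was not tested.

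dpl-1 encodes the DP subunit that pairs with EFL-1. Its only pooled candidate lay 320 bp upstream of the start at a signal of 21.5 and rank 28242 of 30000. Replicate 4 listed an overlapping summit at a signal of 14.2 and rank 27515, close to the end of that list, and a higher one at rank 14639 in a coding exon. Replicate 5 listed none in the window. dpl-1 lies inside T23G7.2, which is transcribed from the other strand. Of the E2F and DP pair, then, efl-1 had a candidate among the upper ranks of replicate 5 and dpl-1 had no summit in replicate 5.

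Set among all genes, the 3 strongest members were near the top. Counting lin-54 itself, 80 protein-coding genes had a highest pooled summit in the window at least as high as that of lin-54, which puts lin-54 within the upper 0.401% of genes, lin-9 within 0.406% and lin-53 within 0.426%. The summits of lin-54 and lin-53 also lay in the windows of rpl-12 and nra-2, so these neighbours stand at least as high. lin-52 lay within the upper 3.42%, lin-35 within 7.45% and efl-1 within 11.1%. dpl-1 lay within 46.8%, and in all 9554 genes (47.8%) had any pooled candidate. The median highest rank of the 7 members with a candidate was 858, against 8699.5 over those 9554 genes. In the narrower promoter window the same 4 members had a summit that passed IDR. This was so for 2.99% of all protein-coding genes, and for 9.68% of the 6175 with a pooled candidate there.

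**Figure D3:**
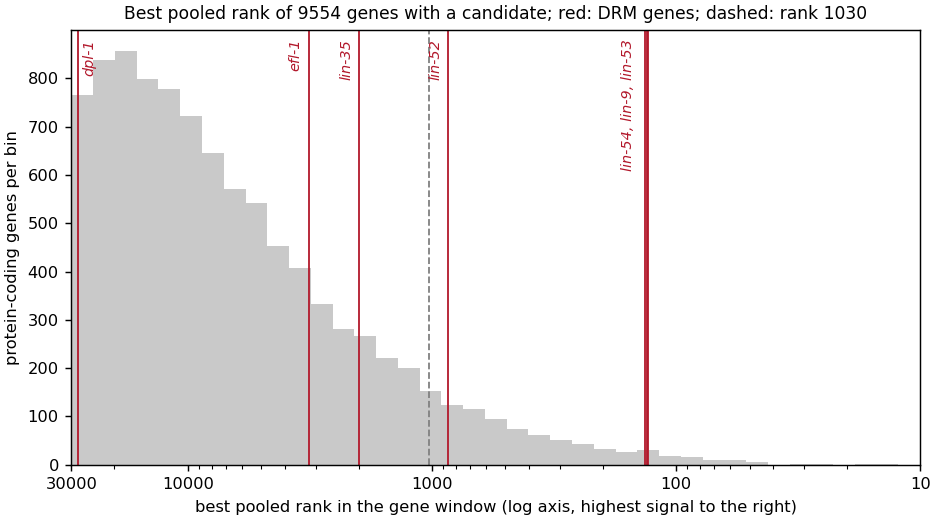
Number of protein-coding genes (y axis) by the rank of their highest pooled summit between 1000 bp upstream and the gene end (x axis, log, highest signal to the right), for the 9554 genes with a candidate. Red lines mark the 7 DRM genes with a candidate and the dashed line is rank 1030. lin-54, lin-9 and lin-53 lie together at ranks 130 to 134 in the sparse right tail.

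Each replicate alone named nearly the same members. Of the 1030 highest summits of replicate 4, some lay at the same 4 members, against 4.10% of all protein-coding genes. Of the 1030 highest of replicate 5, some lay at lin-9, lin-53 and lin-54 only, against 3.92% of genes. With 2060 pooled summits in place of 1030, lin-35 joined the 4, for 5 of 8 members against 7.77% of genes. The regions of lin-9, lin-53 and lin-54 were the ones counted under every one of these settings.

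**Figure D4:**
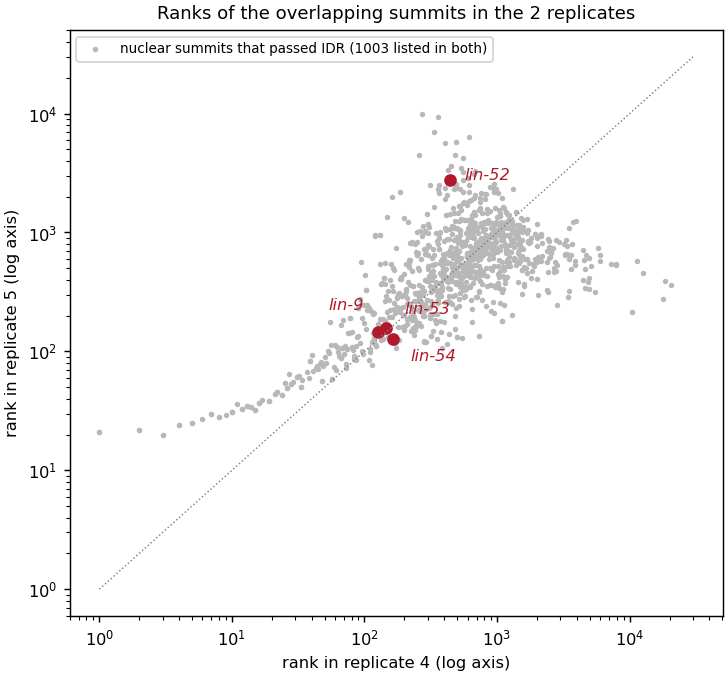
Rank in replicate 4 (x axis, log) against rank in replicate 5 (y axis, log) of the overlapping summits of the 1003 nuclear regions that passed IDR and were listed in both (grey), with the 4 DRM genes in red. The dotted line marks equal ranks. lin-9, lin-53 and lin-54 lie near it and lin-52 lies well above it, with ranks 442 and 2781.

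The 3 strong regions were close in rank in every list. They were grouped by pooled rank, and the pool is made of both replicates, so this is a description. Summed over the pooled list and both replicates, the ranks of lin-9 and lin-53 differed by 31 places, those of lin-53 and lin-54 by 51 and those of lin-9 and lin-54 by 58. By the same measure over 3 lists, and leaving out genes that share a member's summit, such as rpl-12 and nra-2, the gene most like lin-9 was eif-3.C, which encodes a translation initiation factor subunit (ranks 135, 129 and 158, a sum of differences of 17). It was also most like lin-53, with a sum of 20. The gene most like lin-54 was spc-1, which encodes alpha spectrin (ranks 125, 171 and 118, a sum of 21). For lin-52 it was rpn-11, a proteasome subunit gene (ranks 849, 494 and 2440, a sum of 402).

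Position and neighbourhood differed among the members. At lin-9, lin-35, lin-53, lin-54, efl-1 and dpl-1 the highest pooled summit lay between 164 and 367 bp upstream of the start. Over the 598 protein-coding genes with an IDR summit in the promoter window the median was 255 bp upstream, with quartiles of 130.25 and 472.5 bp. At 46 of them (7.69%), lin-52 among these, the summit lay downstream of the start. The window holds 1000 bp upstream and only 200 bp downstream, which by itself favours upstream positions. A divergent gene lay upstream of lin-9, lin-35, lin-53, lin-54 and efl-1, and 3 of these 5 passed IDR. Of all 8420 protein-coding genes so arranged, 5.30% did. lin-37 and lin-52 follow a gene on the same strand, and 1 of the 2 passed IDR, against 3.17% of 10157 genes. Of the 7 highest summits, that of lin-9 was the only one without a second protein-coding gene in reach. For the rest that gene was ZK632.9 at lin-52, nra-2 at lin-53, rpl-12 at lin-54, vps-51 at lin-35, fbxa-90 at efl-1 and T23G7.2 at dpl-1.

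Base composition followed the same order only in part. The 101 bases around the highest summit held 55.4% G and C at lin-9, 55.4% at lin-53 and 49.5% at lin-54. They held 46.5% at efl-1, 39.6% at lin-52, 36.6% at dpl-1 and 33.7% at lin-35. The median was 49.0% over the 1010 nuclear summits that passed IDR and 41.6% over the 28970 other candidates. The 3 strong regions were thus at or above the median of the IDR list, and lin-52 was below its lower quartile of 42.6%.

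DNA words linked to the DRM complex were sought on both strands within 50 bp of the 7 highest summits. TTTGAA, the core of the cell cycle homology region that LIN-54 type proteins bind, was found at lin-9 and lin-54 and not at the other 5. It was present at 12.8% of the summits that passed IDR and at 19.4% of other candidates. The E2F forms GGCGGGAA (1.09% of IDR summits, 0.525% of others) and GCGCGAAA (1.29% and 0.570%) and the GAGA repeat GAGAGAGA (6.44% and 1.74%) were in none of these 7 windows. In an unplanned wider search, within 100 bp of the summit, GCGCGAAA lay at lin-9 and lin-54. There it lay at 2.48% of IDR summits and 1.17% of others, and the other 2 words were again at no member. A further E2F form, TTTCCCGC, whose reverse complement shares 7 bases with GGCGGGAA, was looked for after the sequences had been seen. It lay at efl-1 and at 0.693% of IDR summits and 0.525% of others. Within 100 bp it lay at lin-53 too, and at 1.49% of IDR summits and 1.08% of others. These are matches of letters in windows of 101 or 201 bases and not sites.

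The word CGCTCCAC stood in 3 of the 7 windows, those of lin-9, lin-54 and efl-1, as the capitals above show. It was noticed in the printed sequences of lin-9 and efl-1, so its count at the members is a description. It was present at 11 of the 1010 nuclear summits that passed IDR (1.09%), lin-9 and lin-54 among them. Of other candidates 0.318% held it, efl-1 among them. Both shares thus include regions in which the word was noticed. Among summits in a promoter window of a protein-coding gene the shares were 8 of 493 (1.62%) and 0.505%. The highest of the 11 lay at tasp-1 and K01G5.10 (rank 48), and the one at rank 151 had no gene nearby, both named after their values were seen. It was in neither the lin-53 nor the lin-35 window.

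Genes that work with the DRM complex, or are controlled by it, were described in the same way. Of 65 genes in 7 related lists, 51 had a pooled candidate and 5 had a summit that passed IDR (7.69%, against 4.07% of all protein-coding genes). Among 8 other class B synMuv genes 1 passed (12.5%, against 4.07% of all protein-coding genes). This was lin-15B, which encodes a THAP domain protein, at a signal of 126 and rank 793, 913 bp upstream. It ranked 3883 in replicate 4, where it would not have been counted, and 581 in replicate 5. lin-13, lin-36, lin-65, met-2 and mcd-1 had candidates between ranks 2275 and 6720, and hpl-2 and lin-61 had none. The median over the 6 with a candidate was 4120.5. None of the 4 class A genes passed, a list too small to be read against 4.07%. The highest of them was lin-56 at rank 1904, and the median was 3403.

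In the NuRD and MEC list, whose members include the LIN-53 paralogue RBA-1, 1 of 9 passed (11.1%, against 4.07% of all protein-coding genes), namely lin-40, an MTA homologue. Its summit was 901 bp upstream, at a signal of 130 and rank 753, and ranked 1474 in replicate 4 and 710 in replicate 5. Among the 1030 highest summits of replicate 4 alone this list had egl-27 in its place, and among those of replicate 5 lin-40 and mep-1. The median of the 9 was 8875. Among 8 G1 regulators 2 passed (25%, against 4.07% of all protein-coding genes). The cyclin E gene cye-1 had a summit 1019 bp inside the gene, near WBGene00022955, at a signal of 147 and rank 590. lin-23, which encodes an F-box protein that promotes cell cycle exit, had one 922 bp upstream at a signal of 112 and rank 1004, close to the IDR limit. It ranked 1238 in replicate 4 and 1288 in replicate 5, and would not have been counted in either alone, whereas cye-1 would (ranks 769 and 817). cdk-4, the kinase that acts on LIN-35, stood at rank 1861, outside it, and the median of the 8 was 8087. Of the other 2 E2F genes, efl-2 had its highest candidate at rank 14299 and efl-3 had none.

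Among 24 cell cycle and replication genes 1 passed IDR (4.17%, near the 4.07% of all protein-coding genes), pcn-1, which encodes PCNA. Its summit was 281 bp upstream at a signal of 295 and rank 140, and stood at rank 116 in replicate 4 and 205 in replicate 5. Of the related genes it came nearest in pooled rank to lin-9, lin-53 and lin-54, below all 3. cdc-6 came next at rank 1310, and the median over the 16 genes of this list with a candidate was 16438. Of the 10 germline genes held down in the soma by lin-35, 0 passed IDR, a number too small to be read against 4.07%. The highest was meg-1 at rank 7801, the median over 7 was 18426, and mes-4, glh-4 and htp-3 had no candidate.

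**Figure D5:**
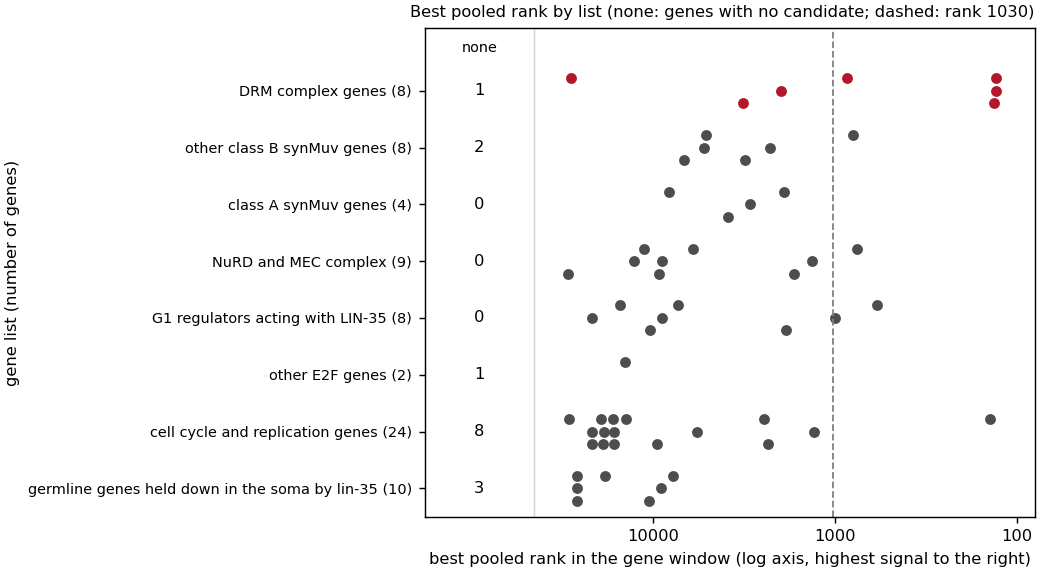
Highest pooled rank in the gene window (x axis, log, highest signal to the right) of each gene in the DRM list (red) and in 7 related lists (dark grey), with the number of genes without a candidate at the left. The dashed line is rank 1030. Of the related genes, pcn-1 at rank 140 lies nearest to the 3 leading DRM genes.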

How the data were processed

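Per the listings deposited beside the samples, the alignment of each replicate, and that of their pool, gave 1 candidate list each beside a control alignment, and the IDR list came from these. Not given in the sources used here are the peak caller and the threshold of IDR. Per the labels, DNA was sonicated to 200 to 800 bp and positions are in ce11. The deposited signal of each summit was used to rank within lists. The deposited −log10 q value has a ceiling in each list (2.89 for 1949 pooled summits) and is given only where named. Genes are those of Ensembl release 115 for WBcel235, the same build, and no region ran past a chromosome end of the RefSeq sequence. The summit is column 2 plus column 10, counted from 1. A replicate summit was the counterpart of a pooled one when the intervals overlapped by 1 bp or more, the highest being taken.

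Members and lists were chosen with earlier results of these data known. No test was run and no p is given: there is 1 group. Named were all members, genes whose promoter window held, or whose body lay within 200 bp of, a summit of theirs that passed IDR, genes of the related lists that passed IDR, and, for each member that passed IDR, 1 most like gene that shares no summit with it. Other neighbours, the comparison by gene arrangement, the rank bands, candidates below the IDR limit, TTTCCCGC and CGCTCCAC were added after values were seen. Alternatives were each replicate alone, 515 or 2060 summits in place of 1030, other windows, interval overlap and transcript starts. The window search was checked on 200 summits placed at known distances, all found or missed as placed. Tables were handled with pandas 2.3.3 and numpy 2.4.6 in Python 3.11.15, the exact interval (which covers counting error only) came from scipy 1.17.1, and figures from matplotlib 3.10.9.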

Additional observations from a re-analysis of the deposited data

How the results depend on the processing

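The 4 members that passed IDR became 3 without replicate 4 (lin-52 lost) and 4 without replicate 5, 3 with the 515 highest summits (lin-52 lost) and 5 with the 2060 highest (lin-35 gained). They were the same 4 with shorter and longer upstream reach of the gene window, with a narrower and a wider promoter window, with any transcript start, and with interval overlap. The share of all protein-coding genes was 2.04% with 515 summits and 7.77% with 2060. The median highest rank of the members was 442 without replicate 5 and 666.5 without replicate 4, against 858, over 7, 6 and 7 members. The 5 related genes that passed IDR became 3 without replicate 5, stayed 5 in number without replicate 4 and became 10 with 2060 summits; the cause was not tested. With motifs sought within 100 bp of the summit, 5 members in place of 2 held one of the first 4, in a wider window that holds more matches. All 5 held TTTGAA, which was then at 29.1% of IDR summits and 35.6% of other candidates. Lists end at 30000 summits, so a gene without a candidate has no value, and with unknown depth no error can be given for a signal. The upstream summits of lin-35 and efl-1 were listed in 1 of the 2 replicates only.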
